A study of Rattus norvegicus with 17 samples.

Results

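The comparison described here sets fetal rat testes exposed in utero to 100 mg/kg/d dipentyl phthalate (DPeP) against testes exposed to 11 mg/kg/d, 6 of the 17 RNA-seq libraries of a dose series. The 3 libraries at 100 mg/kg/d carry the replicate labels 05, 18 and 19, and the 3 at 11 mg/kg/d the labels 03, 16 and 17, and all 6 were taken by their dose label. Timed pregnant wild-type Sprague Dawley dams were gavaged with DPeP, a phthalate ester used to soften plastics, in corn oil at 2.5 mL/kg from gestational day 17 to 21, the day on which testes were collected. RNA came from 1 testis or from a pool of 2 testes of 1 litter. The other 11 libraries were 3 from dams given corn oil alone, 3 at 1 mg/kg/d and 5 at 300 mg/kg/d, by the same route and on the same days. Nothing in the labels says that each library came from its own dam, so p-values measure the spread between these libraries, which may in part be technical. Poly(A) RNA was sequenced without strand information, and a library gave between 14282274 and 20323488 counts on genes and detected between 21466 and 22529 genes.

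In the fetal testis the Leydig cells of the interstitium make testosterone and the peptide hormone INSL3, which together drive masculinization of the genital tract and descent of the testis. Cholesterol enters these cells through receptors such as SCARB1, is carried into mitochondria by STAR, is cut to pregnenolone by CYP11A1 with electrons from FDXR and FDX1, and is converted to androgens by HSD3B, CYP17A1 and HSD17B3. Sertoli cells and germ cells fill the seminiferous cords, and peritubular myoid cells, fibroblasts, vessels and macrophages lie around them. Some phthalate esters are known to lower Leydig cell steroid gene expression in the fetal rat.

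Libraries 05 and 18 stood apart from the other 15. The 13 protein-coding genes of the mitochondrial genome took 8.73% of gene counts in 05 and 7.62% in 18, against 5.15% in 19, 4.86% to 5.37% at 11 mg/kg/d and 4.25% to 5.98% over the 15 other libraries. Cytosolic ribosomal protein genes took 7.68% in 05 and 6.94% in 18, against 5.00% in 19 and 4.33% to 5.53% over the 15 others. The Spearman correlation of log2 TPM with log2 gene length within a library was -0.077 in 05 and -0.054 in 18, against -0.038 to 0.0094 in the others, so longer genes stood lower in these 2 libraries. Library 19 lay inside the range of the other libraries on all 3 measures. Spike-in RNA took between 0.608% and 1.37% of counts over the 17 libraries, with 1.08% in 05 and 1.14% in 18. With 3 libraries against 3, the exact two-sided permutation test gave p = 0.2 for the mitochondrial share, 0.2 for the ribosomal share and 0.3 for the length correlation, and it cannot go below 0.1. Values with library 19 alone at 100 mg/kg/d are therefore given beside the results, and the part of RNA quality in them was not tested.

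**Figure D1:**
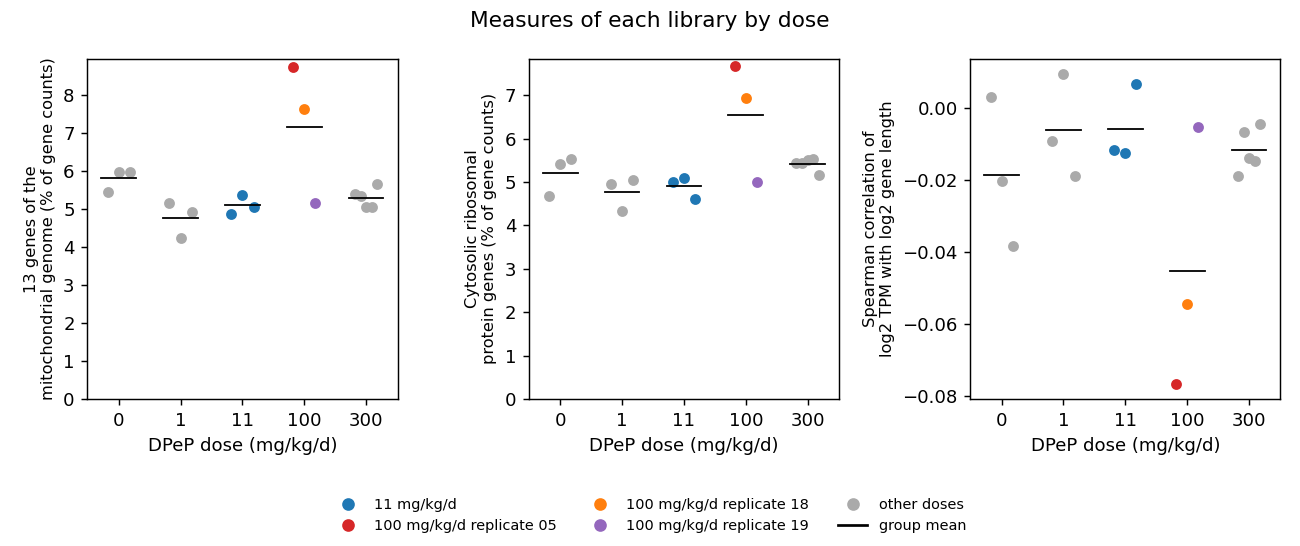
Share of gene counts on the 13 genes of the mitochondrial genome (left, percent), share on cytosolic ribosomal protein genes (middle, percent) and Spearman correlation of log2 TPM with log2 gene length (right), 1 point per library by DPeP dose, black lines at group means. Replicates 05 and 18 at 100 mg/kg/d lie outside the range of the other 15 libraries in each panel, and replicate 19 lies inside it.

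Between 11 and 100 mg/kg/d, genes that import cholesterol into the cell and the mitochondrion and start steroid synthesis (Scarb1, Star, Cyp11a1, Fdxr) fell, and 6 of 17 tested Leydig cell genes and 7 of 25 cell cycle genes were called lower and none higher. Called higher were 32 of 79 ribosomal protein genes, 9 of 27 germ cell genes and 5 of 14 red blood cell genes, with none of these lists called lower. A gene was called at an adjusted p under 0.05 in the edgeR quasi-likelihood fit of all 17 libraries, and log2 fold changes are 100 against 11 mg/kg/d, with standard errors (SE). Of 18005 genes tested, 854 (4.74%) were called, 467 higher (2.59%) and 387 lower (2.15%) at 100 mg/kg/d. Of these, 85 of the higher and 31 of the lower genes differed by at least 2-fold. The 3 values at 100 mg/kg/d did not overlap the 3 values at 11 mg/kg/d in 264 of the 467 higher genes and in 370 of the 387 lower genes, beside 3062 genes (17.0%) over all genes tested. In bulk tissue, fewer cells of a type and less RNA per cell cannot be told apart in any of these values.

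The count of calls rested on single libraries. It was 16 without 100 mg/kg/d replicate 05, 0 without replicate 18 and 5886 without replicate 19, and 25, 256 and 14 without 11 mg/kg/d replicates 03, 16 and 17. With replicate 19 as the only library at 100 mg/kg/d, 0 of 18866 genes tested were called (0%) and 1291 had an unadjusted p under 0.05. No gene was called in all 6 fits that left out 1 library, 829 were called in only 1 or 2 of them, and 13 were called in at least 4. All 854 were called without replicate 19, and those of the 854 named below were called in 1 to 3 of the 6 fits unless another number is given. The direction held more widely in replicate 19 for the lower genes: 387 of 387 stayed below the 11 mg/kg/d mean, with a median log2 fold change of -0.30 in place of -0.51. Of the 467 higher genes, 394 stayed above it, with a median of 0.17 in place of 0.67. Replicate 19 shares these fold changes with the comparison that chose the genes, so the counts describe that library and are no separate support.

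The sample titles carry a code, S447 for replicates 05 and 19 at 100 mg/kg/d and 03 and 17 at 11 mg/kg/d and S448 for replicates 18 and 16, whose meaning the labels do not give. With the code as a term of the fit 163 genes were called. Within S447, and within S448 where 1 library faced 1, the log2 ratio of mean CPM was -0.79 and -0.86 for Star, -1.20 and -0.81 for Scarb1, -1.30 and -1.35 for Mrap, -0.64 and -1.48 for Lhcgr, 1.37 and 1.14 for Fgf9 and 0.86 and 1.20 for Sycp3. The 3 values at each dose did not overlap for any of these 6 genes. The same direction within both codes was therefore fixed in advance and is no separate support.

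Transport and cleavage of cholesterol, the entry to steroid synthesis, fell in all 3 libraries at 100 mg/kg/d. Star (chr16:66264807-66271672, minus strand, mRatBN7.2), which moves cholesterol into mitochondria, had 421, 379 and 397 CPM in replicates 03, 16 and 17 at 11 mg/kg/d and 252, 209 and 222 CPM in replicates 05, 18 and 19 at 100 mg/kg/d. All 3 values at 100 mg/kg/d lay below all 3 at 11 mg/kg/d. The log2 fold change was -0.81 (SE 0.21, edgeR adjusted p = 0.0403), and -0.85 with replicate 19 alone. Cyp11a1 (chr8:58404669-58434338, plus strand), the side-chain cleavage enzyme, had 775, 633 and 601 CPM at 11 mg/kg/d and 408, 379.8 and 429 CPM at 100 mg/kg/d, again with no overlap (log2 fold change -0.72, SE 0.17, edgeR adjusted p = 0.0355, and -0.65 with replicate 19 alone). Fdxr, the ferredoxin reductase that feeds electrons to CYP11A1, fell from 150.3, 136 and 132 CPM to 82.6, 75.2 and 96.0 CPM (log2 fold change -0.72, SE 0.13, edgeR adjusted p = 0.0171). Its partner Fdx1 had a log2 fold change of -0.52 and did not pass the test (edgeR adjusted p = 0.103), though its 3 values at 100 mg/kg/d, 69.1 to 94.4 CPM, lay below the 96.4 to 122 CPM of the lower dose. Each of the Star and Cyp11a1 calls was held in 1 of the 6 fits that left out a library, and that of Fdxr in 2.

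None of the later enzymes of the pathway named here was called lower. Cyp17a1, the 17-hydroxylase and lyase, had 828, 752 and 698 CPM at 11 mg/kg/d and 772, 618 and 519 CPM at 100 mg/kg/d, so the groups overlapped (log2 fold change -0.25, SE 0.20, edgeR adjusted p = 0.432). With replicate 19 alone the log2 fold change of Cyp17a1 was -0.56, beside -0.55 for Fdxr, which was called lower with all libraries. Hsd3b1, whose near-identical paralogs make its counts uncertain, had 1064, 1153 and 675 CPM against 1507, 1926 and 726 CPM (log2 fold change 0.52, edgeR adjusted p = 0.174). The Hsd3b1 values were high in the same 2 libraries that stood apart, and with replicate 19 alone the log2 fold change was -0.42. Hsd17b3, which makes testosterone, passed the test as higher, with 82.9, 75.2 and 86.7 CPM against 152, 149 and 83.8 CPM (log2 fold change 0.65, SE 0.17, edgeR adjusted p = 0.0429). Replicate 19 lay within the range of the lower dose for Hsd17b3, and with it alone the log2 fold change was 0.03. Por, the reductase that serves CYP17A1, had a log2 fold change of -0.40 and -0.08 with replicate 19 alone (edgeR adjusted p = 0.0802 in all libraries). Akr1c14, a 3-alpha-hydroxysteroid dehydrogenase named after its values were seen, had the lowest log2 fold change of the list at -1.50, and did not pass the test (edgeR adjusted p = 0.0545). The Akr1c14 values, 1.70, 4.64 and 5.23 CPM at 11 mg/kg/d and 1.79, 1.49 and 0.79 CPM at 100 mg/kg/d, overlapped. Its vehicle libraries had 1.65 to 2.29 CPM. Of the 14 genes of the androgen synthesis list, 13 were tested, 3 fell (Star, Cyp11a1, Fdxr) and 1 rose (Hsd17b3), with a median log2 fold change of -0.25, and -0.42 with replicate 19 alone, beside 0.04 and -0.01 over all genes tested.

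**Figure D2:**
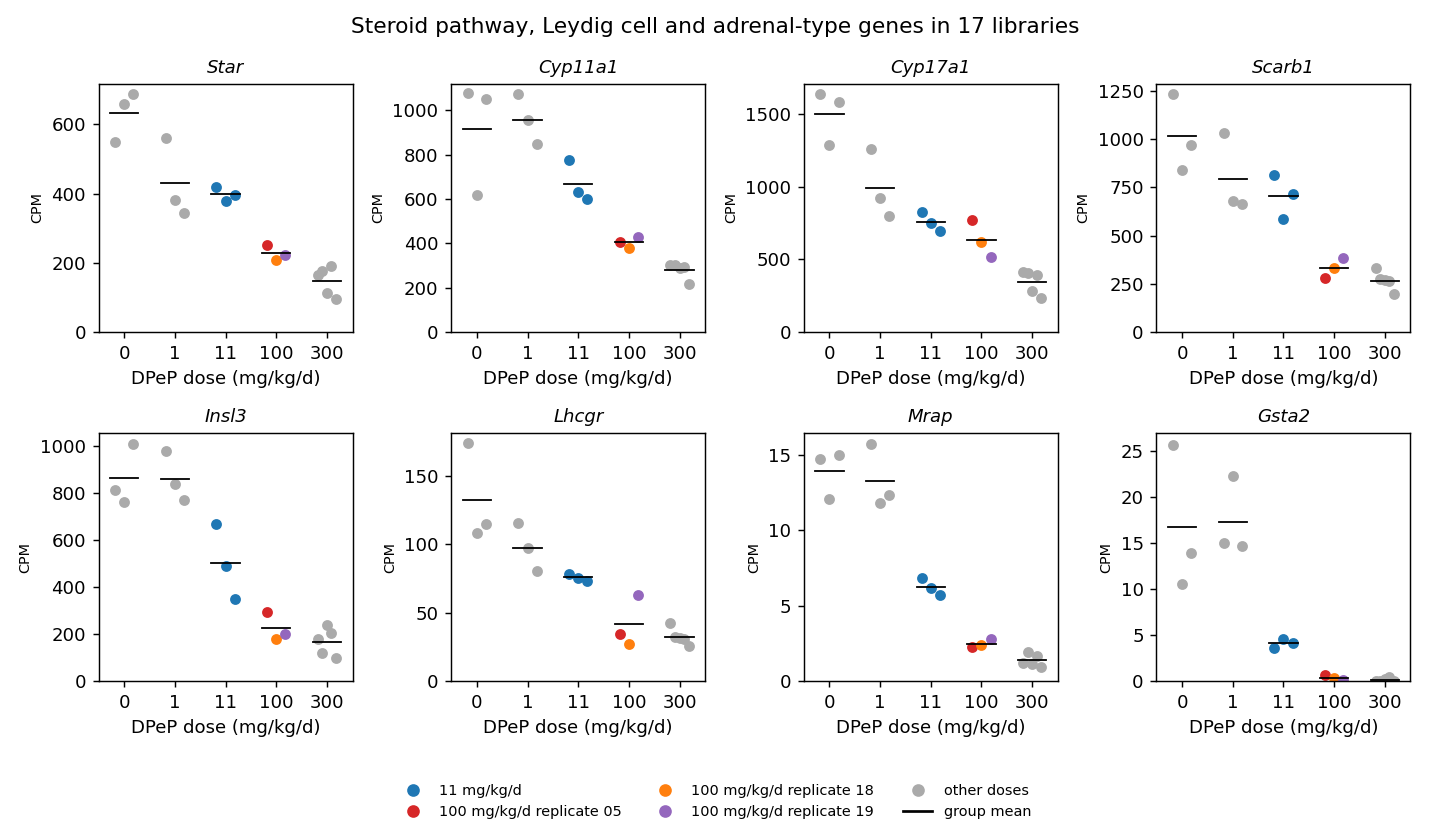
CPM (linear axis from 0) of Star, Cyp11a1, Cyp17a1, Scarb1, Insl3, Lhcgr, Mrap and Gsta2 in each of the 17 libraries by DPeP dose in mg/kg/d, with black lines at group means. For every gene shown except Cyp17a1, the 3 libraries at 100 mg/kg/d lie below the 3 at 11 mg/kg/d, and replicate 19 is highest of the 3 for Lhcgr at 63.3 CPM.

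Scarb1 (chr12:31296156-31362647, plus strand), the receptor that takes up cholesterol from high-density lipoprotein, had 813, 584 and 717 CPM at 11 mg/kg/d and 280.2, 334 and 385 CPM at 100 mg/kg/d. These groups did not overlap, and the gene fell by 1.08 on the log2 scale (SE 0.20, edgeR adjusted p = 0.0171), with -0.88 for replicate 19 alone. Plin2, which coats lipid droplets, fell by 0.40 and by 0.26 with replicate 19 alone. Apoe, an apolipoprotein, rose by 0.43 (edgeR adjusted p = 0.0465), and its value with replicate 19 alone was 0.16. In the list for cholesterol uptake, storage and efflux, 3 of 19 genes fell and 1 rose, with a median log2 fold change of -0.12.

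Of 23 genes tested for the synthesis of cholesterol, 1 was called lower and 1 higher, beside 2.15% lower and 2.59% higher of all genes tested. Such single calls, here and in the next lists, are too few to be read as a result about a list. The median log2 fold change of the cholesterol synthesis list was -0.15, and -0.40 with replicate 19 alone, where 20 of 23 genes were lower. Elovl5, a fatty acid elongase, was the 1 called gene of 14 for fatty acid synthesis, falling from 185, 181 and 186 CPM to 129, 132 and 154 CPM. Of these 14 genes, 13 had a negative log2 fold change, with a median of -0.26. With replicate 19 alone 12 were lower and the median was -0.16. Cpt1a, which lets fatty acids into mitochondria, was the 1 of 23 genes of the list for PPAR targets and fatty acid oxidation that passed the test (log2 fold change -0.43, SE 0.12), and its groups overlapped.

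Leydig cell hormone and receptor genes fell. Insl3 (chr16:18384829-18400560, plus strand), the hormone that draws the gubernaculum, had 668, 492 and 351 CPM at 11 mg/kg/d and 297, 178 and 203 CPM at 100 mg/kg/d. The 3 higher values were all at the lower dose, and the gene fell by 1.16 (SE 0.27, edgeR adjusted p = 0.0355), with -1.32 for replicate 19 alone. Its model overlaps Jak3 and the counting carried no strand information, so part of these counts may belong to Jak3. Lhcgr (chr6:5661871-5724521, plus strand), the receptor for luteinizing hormone, had 78.6, 75.3 and 73.6 CPM against 34.6, 27.1 and 63.3 CPM. The log2 fold change of Lhcgr was -0.87 (SE 0.24, edgeR adjusted p = 0.0465) and -0.27 with replicate 19 alone, and the lower values were those of the libraries that stood apart. Dlk1, a membrane ligand of fetal Leydig and progenitor cells, fell from 875, 652 and 841 CPM to 436, 519 and 589.8 CPM. Nr5a1, the nuclear receptor that drives steroid genes, had 233, 198 and 204 CPM against 142, 167 and 185 CPM and did not pass the test (log2 fold change -0.36, edgeR adjusted p = 0.0954).

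Of the 18 Leydig cell genes, 17 were tested, 6 fell (Insl3, Lhcgr, Dlk1, Star, Cyp11a1, Scarb1) and none rose. The median log2 fold change of that list was -0.49, and -0.43 with replicate 19 alone, where 15 of 17 genes were lower. Of 16 regulators of steroidogenesis, none passed the edgeR test, with a median of -0.27 that became -0.10 with replicate 19 alone. The defining Leydig cell markers Insl3, Star and Cyp17a1 were present in every library, as were the Sertoli cell markers Amh and Dhh.

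Genes better known from the adrenal cortex also changed. Mrap (chr11:29992034-30003024, plus strand), the accessory protein of the corticotropin receptor, had 6.84, 6.18 and 5.71 CPM at 11 mg/kg/d and 2.28, 2.42 and 2.82 CPM at 100 mg/kg/d. The spread within each group was small beside this gap, and the log2 fold change was -1.32 (SE 0.22, edgeR adjusted p = 0.00975), with -1.15 for replicate 19 alone and a call in 4 of the 6 fits that left out a library. Cyp11b1, the 11-beta-hydroxylase of corticosteroid synthesis, fell from 6.06, 7.34 and 6.86 CPM to 2.59, 2.83 and 1.11 CPM (log2 fold change -1.61, SE 0.40, edgeR adjusted p = 0.0371). Akr1b7, an aldose reductase family member, rose from 3.09, 1.93 and 2.72 CPM to 6.53, 8.28 and 3.87 CPM, so these 3 tested genes of 6 listed did not move one way.

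The 250 bases before the start of 3 of the falling Leydig cell genes are shown because they share the letters AGGTCA, the core of the element that NR5A1 and other nuclear receptors bind. Sequences are those of RefSeq on GRCr8, another build than the counts, printed 5′ to 3′ on the gene's strand, with AGGTCA or its complement TGACCT in capitals.
Cyp11a1, chr8:67318415-67318664, plus strand: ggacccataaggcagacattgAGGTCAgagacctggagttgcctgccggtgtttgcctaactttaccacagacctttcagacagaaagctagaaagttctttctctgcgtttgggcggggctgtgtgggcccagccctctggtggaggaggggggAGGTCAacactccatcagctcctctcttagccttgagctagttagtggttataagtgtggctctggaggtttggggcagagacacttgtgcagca
Insl3, chr16:18432939-18433188, plus strand: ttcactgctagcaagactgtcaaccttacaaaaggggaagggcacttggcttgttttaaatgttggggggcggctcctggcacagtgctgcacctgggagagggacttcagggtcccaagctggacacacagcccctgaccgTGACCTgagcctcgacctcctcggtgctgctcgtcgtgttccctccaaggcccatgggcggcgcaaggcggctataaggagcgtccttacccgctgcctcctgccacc
Lhcgr, chr6:11415165-11415414, plus strand: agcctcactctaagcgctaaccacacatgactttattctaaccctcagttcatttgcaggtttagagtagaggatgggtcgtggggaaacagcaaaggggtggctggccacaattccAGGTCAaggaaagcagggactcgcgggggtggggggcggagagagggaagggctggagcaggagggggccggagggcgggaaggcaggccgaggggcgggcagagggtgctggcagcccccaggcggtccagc

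Cyp11a1 held AGGTCA on its own strand from 229 to 224 and from 95 to 90 bases before the start, Lhcgr from 133 to 128 bases before it, and Insl3 held it on the opposite strand from 108 to 103 bases before the start. Of the 9 called falling genes of the androgen synthesis, Leydig cell and cholesterol uptake lists, 6 had a promoter in the table and 3 of these held AGGTCA on either strand, beside 14.1% of 33469 promoters. This 6-letter search was chosen after none of the 6 was found to hold the 7-letter AAGGTCA, which 3.99% of all promoters hold and which contains AGGTCA. For the letters TCACNCCAC of the sterol response element, 0 of the 18 matched promoters of cholesterol synthesis genes held a match, beside 0.974% of all promoters. Star and Scarb1 were not among the matched promoters. A match describes letters and is no binding site, and no match says only that these letters are not in this window.

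Levels over the whole dose series are given for 5 of these genes. Mrap had 13.9 ± 1.61 CPM in vehicle, 13.3 ± 2.12 at 1 mg/kg/d, 6.24 ± 0.57 at 11 mg/kg/d, 2.51 ± 0.28 at 100 mg/kg/d (SD, n = 3 each) and 1.39 ± 0.39 at 300 mg/kg/d (SD, n = 5). Insl3 stood at 862 ± 129.9 CPM in vehicle and 861 ± 106 at 1 mg/kg/d (SD, n = 3), and at 168 ± 58.5 CPM at 300 mg/kg/d (SD, n = 5). Star had 632 ± 73.7 CPM in vehicle, 429.7 ± 116 at 1 mg/kg/d and 148 ± 41.1 at 300 mg/kg/d (SD, n = 3, 3 and 5). Scarb1 had 1017 ± 201 CPM in vehicle and 267 ± 47.8 at 300 mg/kg/d, near its values at 100 mg/kg/d. Cyp17a1, which did not pass the test here, went from 1504 ± 191 CPM in vehicle to 993 ± 238 at 1 mg/kg/d and 347 ± 83.4 at 300 mg/kg/d.

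The neighbouring dose steps gave almost no calls. From 1 to 11 mg/kg/d, 1 gene was called (0.00555%), Dusp27, which rose by 1.53, and 804 genes had an unadjusted p under 0.05 in the same edgeR fit. From 100 to 300 mg/kg/d, 1 gene was called (0.00555%), Cpe, a prohormone-processing carboxypeptidase, which rose by 1.09, and 4362 had an unadjusted p under 0.05. From 11 to 100 mg/kg/d, with 854 calls, 4903 genes had an unadjusted p under 0.05 in that edgeR fit. Both neighbouring steps share libraries with the comparison of 100 with 11 mg/kg/d. The difference of the step from 11 to 100 from the step from 1 to 11 mg/kg/d was itself tested, and no gene passed (0%), with 1208 at an unadjusted p under 0.05. Against the step from vehicle to 1 mg/kg/d, 108 genes passed (0.600%). Against the step from 100 to 300 mg/kg/d, 1389 genes passed (7.71%), 989 with a higher and 400 with a lower change from 11 to 100 mg/kg/d. That count was 1 without replicate 05, 0 without replicate 18, 6610 without replicate 19, 0 without replicate 03, 778 without replicate 16, 0 without replicate 17 and 0 without both 05 and 18. For Mrap, Star and Cyp11a1 none of these differences passed. Fdxr passed against the step from 100 to 300 mg/kg/d (difference -0.91, edgeR adjusted p = 0.0339). It also passed against the step from vehicle to 1 mg/kg/d (-0.81, edgeR adjusted p = 0.0498). Hsd3b1 passed against the step from 100 to 300 mg/kg/d (1.54, edgeR adjusted p = 0.0345).

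Among the 1389 genes whose step to 100 mg/kg/d differed from the step to 300 mg/kg/d, those named by size were AABR07001902.1, Olr1694, Mmp13 and Cesl1 towards higher and Gimap1, Cyp27b1, Masp1 and Cilp towards lower change. The first pair rested on 1 library each: AABR07001902.1 had 29.0 CPM in replicate 05 and at most 0.363 CPM in the other 5 libraries of the comparison, and Olr1694, an olfactory receptor gene, had 33.2 CPM in replicate 18 and at most 1.36 CPM in the other 5. With replicate 19 alone their log2 fold changes were 0.06 and -0.32. Mmp13, a collagenase, had 0, 0.50 and 0.05 CPM at 11 mg/kg/d, 1.91, 2.31 and 1.84 CPM at 100 mg/kg/d, and between 0 and 0.468 CPM in the 5 libraries at 300 mg/kg/d. Mmp13 had the highest log2 fold change of the called genes with a symbol, a mean of at least 1 CPM and no overlap between the groups (3.40, SE 0.94, edgeR adjusted p = 0.0465), at 3.25 with replicate 19 alone. Cesl1, a carboxylesterase-like gene with close paralogs, rose by 1.79 and stood at 0.636 ± 0.12 CPM at 300 mg/kg/d (SD, n = 5), near the 0.606 to 0.718 CPM of 11 mg/kg/d. Gimap1 fell by 1.04 and Cyp27b1, which activates vitamin D, Masp1, a complement protease, and Cilp, a cartilage matrix protein, had log2 fold changes of -1.18, -0.94 and -0.80 that did not pass the test from 11 to 100 mg/kg/d.

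The 300 mg/kg/d and vehicle libraries share none with this comparison and so show the called genes in other testes. Over all genes tested, 179 were called higher (0.994%) and 253 lower (1.41%) at 300 mg/kg/d than in vehicle. Of the 387 genes lower at 100 than at 11 mg/kg/d, 323 (83.5%) were lower at 300 mg/kg/d than in vehicle, beside 48.0% of all genes tested, and 70 were called lower. These 70 are 18.1% of the 387 and 27.7% of the 253. Of the 467 higher genes, 269 (57.6%) were higher at 300 mg/kg/d, beside 52.0% of all genes, and 24 were called higher, which is 5.14% of the 467 and 13.4% of the 179. No gene was called in opposite directions. The higher genes also had shorter models, with a median summed exon length of 1975 bases, beside 3732 for the lower genes and 2814 for all genes tested. With a gene length trend removed from the fit, 589 of the 854 calls were kept, 324 higher and 265 lower. What part of the calls is due to length was not tested.

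**Figure D3:**
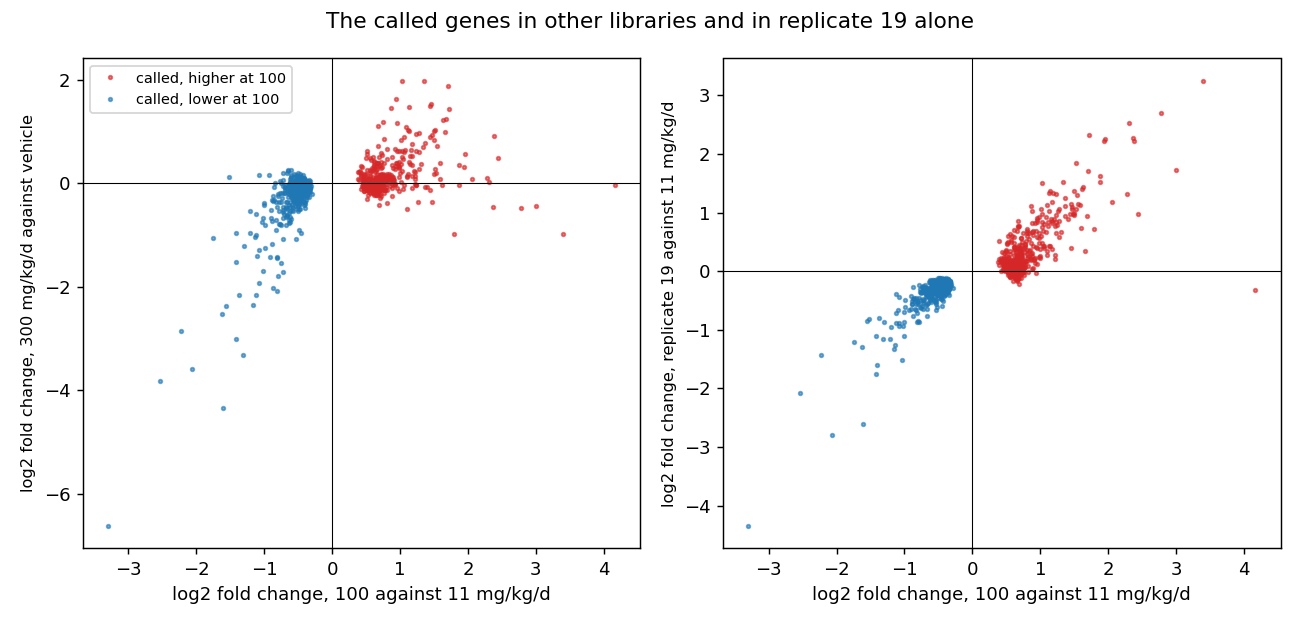
Each point is a gene called at 100 against 11 mg/kg/d, red where higher and blue where lower, by its log2 fold change there (x axis) and its log2 fold change at 300 mg/kg/d against vehicle (left) or with replicate 19 alone at 100 mg/kg/d (right). On the left 323 of 387 blue points lie below 0 and 269 of 467 red points above it, and on the right, where the axes share libraries, all 387 blue points lie below 0 and 394 red points above it.

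The genes whose calls were held in at least 4 of the 6 fits without 1 library were named after their values were seen. They comprised Gsta2, Tmem164, Entpd5, Col9a3, Reep6, Col6a6 and Aldh1l1 in 5 fits, and Mrap, Stx3, Rnf207, Col2a1, Letm1 and 1 gene without a symbol in 4, with 8 falling and 5 rising. Several of the named genes share bases with a neighbour (Entpd5 with Coq6, Col6a6 with Pik3r4, Stx3 with Mrpl16, Sycp3 with Chpt1, Aurka with Fam210b, Ahsp with Rusf1), as does Fcer1g, and without strand their counts are uncertain. Gsta2, a glutathione transferase with close paralogs that is found in steroid-making tissue, had 3.57, 4.64 and 4.14 CPM at 11 mg/kg/d and 0.68, 0.36 and 0.20 CPM at 100 mg/kg/d. Its log2 fold change of -3.30 (SE 0.53, edgeR adjusted p = 0.00975) was the lowest of the genes named by size, and it had 16.7 ± 7.93 CPM in vehicle (SD, n = 3). Tmem164, a membrane protein gene, went from 157, 157 and 164 CPM to 89.1, 89.9 and 113 CPM and had the smallest adjusted p of all genes (log2 fold change -0.71, SE 0.09, edgeR adjusted p = 0.00609). Entpd5, a nucleotidase of the endoplasmic reticulum, fell from 38.5, 39.9 and 41.5 CPM to 20.03, 20.2 and 27.8 CPM. Aldh1l1, a folate enzyme, fell from 35.8, 29.8 and 31.4 CPM to 15.5, 12.7 and 19.9 CPM, and Reep6 from 74.5, 64.0 and 62.7 CPM to 25.7, 30.9 and 44.3 CPM. For Entpd5, Aldh1l1 and Reep6 replicate 19 was the highest of its group and still below every library at 11 mg/kg/d.

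Among collagens the direction differed by gene. Col9a3 and Col2a1, known as cartilage collagens, rose by 1.09 (SE 0.17) and 0.95 (SE 0.19), with 0.67 and 0.91 for replicate 19 alone. Col6a6, of the beaded-filament collagens, fell from 72.2, 62.4 and 119.7 CPM to 31.4, 24.5 and 39.6 CPM. The interstitial collagens Col1a2, Col3a1 and Col5a1 fell by 0.54, 0.49 and 0.61, and by 0.42, 0.29 and 0.27 with replicate 19 alone. They were the 3 called genes of 17 in the interstitial fibroblast and progenitor list, whose median log2 fold change was -0.34, and -0.09 with replicate 19 alone. At 300 mg/kg/d Col2a1 stood at 46.5 ± 4.88 CPM (SD, n = 5) beside 15.1 ± 0.99 in vehicle (SD, n = 3), while Col5a1 stood at 922 ± 33.2 beside 923 ± 102.

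Other genes named for the size of their fall were Znf750, Ush1g, Prmt8, Slc7a8 and Olfm2, with log2 fold changes of -2.22, -1.75, -1.62, -1.56 and -1.41. Slc7a8, an amino acid transporter, had 67.6, 60.2 and 69.8 CPM against 19.2, 11.5 and 36.9 CPM. Its value with replicate 19 alone was -0.85. Olfm2 had 2.97, 4.25 and 4.66 CPM against 1.60, 1.54 and 1.31 CPM, with no higher value in replicate 19. The genes named for their rise were Mmp13, Hbe1, Ocm, RGD1560718, Rhox4g, Cesl1, Gjb2 and Dhrs2, with log2 fold changes from 3.40 down to 1.59. Gjb2, a gap junction protein, had 2.18, 2.15 and 1.57 CPM against 6.66, 3.03 and 9.90 CPM, and its highest value was in replicate 19.

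Germ cell genes were higher at 100 mg/kg/d, with the highest summed levels in the 2 libraries that stood apart. Of 28 listed genes 27 were tested, 9 rose and none fell, and 25 had a positive log2 fold change, with a median of 0.53, and 0.26 with replicate 19 alone. Sycp3, of the meiotic chromosome axis, had 19.9, 22.0 and 17.3 CPM against 43.6, 50.7 and 23.9 CPM (log2 fold change 1.00, SE 0.21, edgeR adjusted p = 0.0273), and its log2 fold change was 0.27 with replicate 19 alone. Dazl, an RNA-binding protein of germ cells, had 24.6, 29.7 and 28.4 CPM against 54.3, 46.6 and 36.2 CPM, so that replicate 19 too lay above the lower dose. Dppa3, Mael, Ddx4 and Nanos2 rose by 1.22, 0.64, 0.67 and 1.44, and their values with replicate 19 alone were 0.21, 0.11, 0.20 and 0.98. The summed level of the list was 1824 to 2407 CPM at 11 mg/kg/d and 2443 to 3306 CPM at 100 mg/kg/d, lowest in replicate 19.

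Of 20 tested Sertoli cell genes, 3 rose and none fell. Fgf9, a growth factor of the cords, had 2.85, 4.31 and 2.67 CPM against 7.40, 9.46 and 6.89 CPM, with no overlap (log2 fold change 1.27, SE 0.22, edgeR adjusted p = 0.0142, and 1.06 with replicate 19 alone). Sox10, a transcription factor best known from the neural crest, had 2.91, 2.10 and 1.20 CPM against 4.50, 6.38 and 4.92 CPM (log2 fold change 1.36, SE 0.32, and 1.25 with replicate 19 alone). Both were higher again at 300 mg/kg/d, at 9.44 ± 1.80 CPM for Fgf9 and 6.99 ± 2.31 CPM for Sox10 (SD, n = 5), against 4.82 ± 0.38 and 1.76 ± 0.49 CPM in vehicle (SD, n = 3). Aard rose by 0.61, and by 0.08 with replicate 19 alone. Amh, the hormone that removes the Müllerian duct, had 1312, 1423 and 1388 CPM against 1811, 1989 and 1774 CPM. Those groups did not overlap, but Amh did not pass the test (log2 fold change 0.44, SE 0.20, edgeR adjusted p = 0.174). Dhh, the hedgehog ligand of Sertoli cells, had a log2 fold change of 0.15. The list had a median of 0.04, beside 0.04 over all genes tested.

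**Figure D4:**
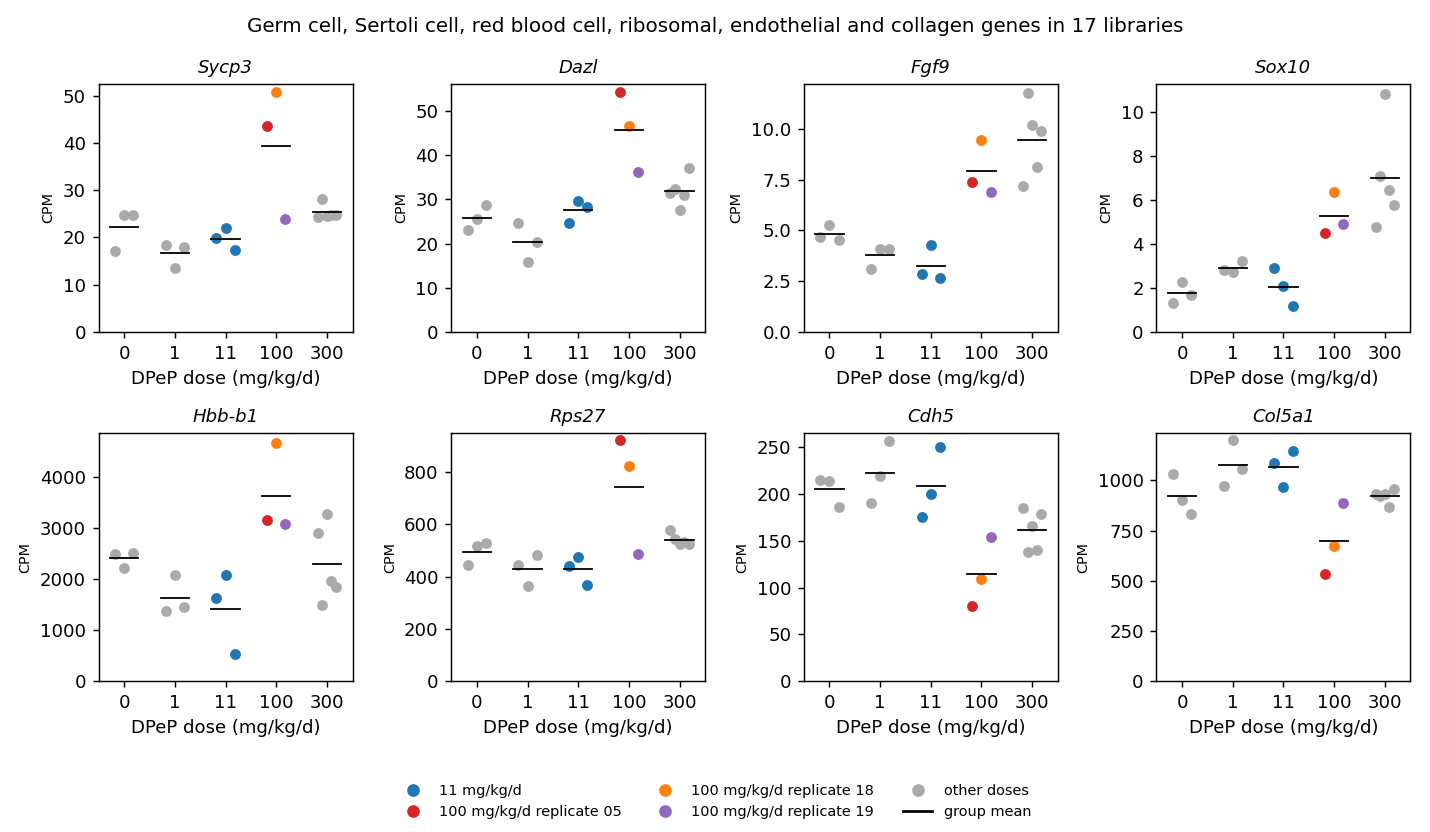
CPM (linear axis from 0) of Sycp3, Dazl, Fgf9, Sox10, Hbb-b1, Rps27, Cdh5 and Col5a1 in each of the 17 libraries by DPeP dose in mg/kg/d, with black lines at group means. For Sycp3 and Rps27 replicates 05 and 18 at 100 mg/kg/d lie above all other libraries while replicate 19 does not, and for Fgf9 and Sox10 all 3 lie above the libraries at 11 mg/kg/d.

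Red blood cell genes were higher at 100 than at 11 mg/kg/d in all 3 libraries. All 14 tested genes had a positive log2 fold change, 5 rose, and the median was 1.03, with 1.07 for replicate 19 alone and 0.71 without 11 mg/kg/d replicate 17, the lowest library. At 300 mg/kg/d the median of these genes was 0.01 against vehicle and -0.52 against 100 mg/kg/d. Their summed level was 7705, 9433 and 2612 CPM at 11 mg/kg/d and 11581, 16952 and 14848 CPM at 100 mg/kg/d, and how much blood each sample held was not tested. Hbb-b1, a beta-globin gene whose counts are shared with near-identical copies, had 1632, 2082 and 528 CPM against 3158, 4663 and 3084 CPM. Alas2, the first enzyme of heme synthesis in red cells, rose by 0.88 and Ahsp, which holds free alpha-globin, by 1.23. Hbe1, an embryonic globin, rose by 2.28 (SE 0.55), with 16.3 CPM in replicate 18 and 4.39 to 4.68 CPM in the other two.

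Ribosomal protein genes rose, and in replicate 19 they were near their level at 11 mg/kg/d. Of 79 tested genes, 32 rose and none fell, with a median log2 fold change of 0.54, but of -0.01 with replicate 19 alone, where 49 of 79 genes were lower. Rps27 had 439.7, 476 and 369 CPM against 922, 822 and 488 CPM (log2 fold change 0.80, and 0.18 with replicate 19 alone). Rpl39l, a paralog enriched in germ cells, rose by 0.94, and by 0.42 with replicate 19 alone. The 13 genes of the mitochondrial genome, with Mt-nd2 and Mt-co3 among the 4 that rose, had a median of 0.55 and of -0.03 with replicate 19 alone. The nuclear respiratory chain genes, of which Uqcrh, Cox7b and Atp5if1 rose among 67 tested, had a median of 0.39, and of -0.16 with replicate 19 alone, where 60 of 67 were lower. In the list for oxidative stress and glutathione, Sod1 and Prdx1 rose and Gsta2 and Txnrd1 fell among 23 tested genes, and the log2 fold change of Prdx1 was 0.65, and -0.14 with replicate 19 alone.

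Of 25 tested cell cycle genes, 7 fell and none rose, while 16 had a negative and 9 a positive log2 fold change, with a median of -0.14. With replicate 19 alone the median was -0.26 and 25 of 25 were lower. The summed level of the list was 3819, 3631 and 3899.8 CPM at 11 mg/kg/d and 4239.6, 3816 and 3146 CPM at 100 mg/kg/d, so replicate 05 was the highest of the 6 and replicate 19 the lowest. Aurka, a mitotic kinase, had 36.8, 32.8 and 34.2 CPM against 23.5, 24.0 and 25.4 CPM (log2 fold change -0.51, SE 0.10, edgeR adjusted p = 0.0220, and -0.46 with replicate 19 alone). Plk1, another mitotic kinase, fell by 0.49, and Mcm3 and Mcm5, of the replicative helicase, by 0.36 and 0.34, with no overlap between the groups for any of these. Pmaip1, a mediator of apoptosis, rose from 10.2, 10.8 and 10.2 CPM to 15.3, 20.6 and 14.0 CPM (log2 fold change 0.68, SE 0.19, and 0.41 with replicate 19 alone). It was the 1 gene called higher of 17 tested for p53 targets and cell death. In that list 1 gene was called lower, 10 of 17 had a negative log2 fold change and the median was -0.11. The 20 tested immediate early genes, which respond within minutes to handling or stress, included no called gene in the edgeR fit.

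For the remaining cell types the calls are given beside the 2.59% higher and 2.15% lower of all genes tested. Cdh5, the cadherin of vessel walls, was the 1 endothelial gene of 14 called, with 175, 199.9 and 250.4 CPM against 80.8, 109 and 153 CPM (log2 fold change -0.87, SE 0.18, edgeR adjusted p = 0.0303). The endothelial list had a median of -0.33, and of 0.14 with replicate 19 alone. Lyz2 and Fcer1g, of macrophages, rose by 0.68 and 0.81, with 0.45 and 0.69 for replicate 19 alone, among 16 tested genes with a median of 0.07. No peritubular myoid gene of 12 was called, with a median of -0.38, and of -0.06 with replicate 19 alone. Krt18, an epithelial keratin, was the 1 called gene of 13 for mesonephric duct and epididymis, and no gene of 9 for liver-type plasma proteins was called.

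**Figure D5:**
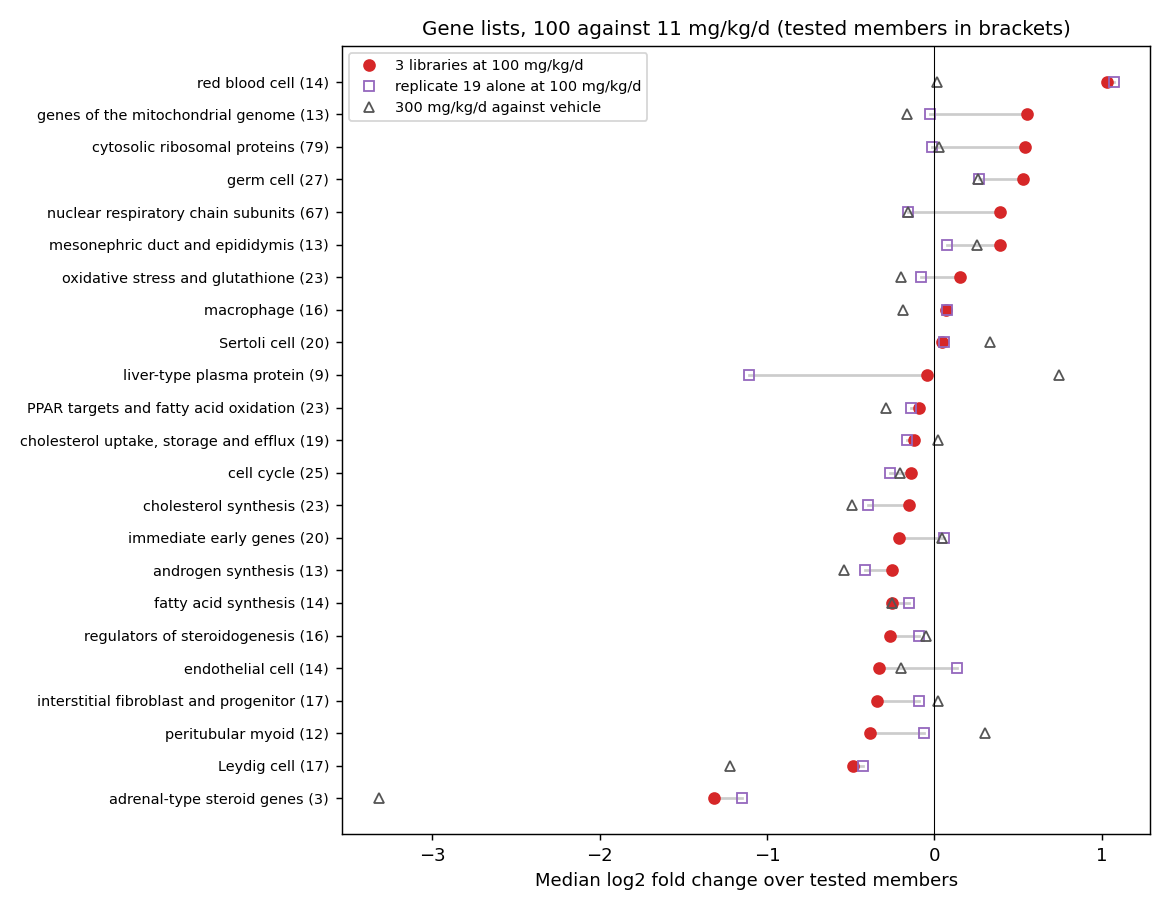
Median log2 fold change of the gene lists described (rows, tested members in brackets) at 100 against 11 mg/kg/d with all 3 libraries (filled circles) and with replicate 19 alone (open squares), and at 300 mg/kg/d against vehicle (triangles). The list for p53 targets and cell death is not shown. For the Leydig cell list the medians are -0.49, -0.43 and -1.22, and for the cytosolic ribosomal protein list 0.54, -0.01 and 0.03.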

How the data were processed

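Raw read counts per gene, deposited by the authors for 17 libraries, were used. The submitters' processing notes name Trimmomatic 0.36, STAR 2.5.2b, featureCounts, Subread 1.5.2, DESeq2, limma and the build mRatBN7.2 without their roles; counts were per gene with its coordinates and summed exon length, per the file headers. The annotation release was not stated. After 92 ERCC spike-in rows were left out, 30560 genes remained, 24044 with a symbol.

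Here, edgeR 4.0.16 (R 4.3.3, TMM, filterByExpr by dose, quasi-likelihood F test, 12 residual degrees of freedom) was fitted to all 17 libraries, and p-values were adjusted by Benjamini-Hochberg over all 18005 genes tested. SE was obtained by dividing the log2 fold change by the root of F. CPM used TMM-scaled library sizes. Functions were tested on simulated data. DESeq2 1.42.0, limma 3.58.1 and other settings were alternatives.

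The comparison, the 24 gene lists (525 of 539 entries matched, 514 tested) and the rule for named genes were chosen with earlier results of these data known. The rule named 12 panel genes, up to 4 called members per list by adjusted p (the 2 most abundant where none was called), the 8 highest and 8 lowest called genes with at least 1 CPM on average, a symbol and no overlap, and 4 per direction of each step difference; not all are described. Akr1c14, Nanos2, Fdx1, Por, Ddx4, Cpe, Dusp27 and the genes held in at least 4 leave-one-out fits were named after their values were seen. Some members of the lists are not reported here.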

Additional observations from a re-analysis of the deposited data

Results flagged for a closer look

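In the 5 libraries at 300 mg/kg/d, a library far from the other 4 was looked for in each named gene, and 4 of 90 checks found one, where chance flags about 5% of groups. Cyp11a1 stood at 215 CPM in replicate 20, with the others between 287 and 304 CPM. Sycp3 stood at 28.2 CPM in replicate 07, with the others between 24.3 and 24.7 CPM. Uqcrh stood at 103 CPM in replicate 20, with the others between 109 and 111 CPM. Slc7a8 stood at 25.3 CPM in replicate 14, with the others between 16.0 and 18.3 CPM. Groups of 3 libraries, as at 11 and 100 mg/kg/d, are too small for this check.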

How the results depend on the processing

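The count of 854 called genes at 100 against 11 mg/kg/d became 2224 with DESeq2, 6351 with limma voom and quality weights, 2 with the 6 libraries fitted alone, 163 with the sample code in the fit and 1 with the mitochondrial share as a covariate; the cause was not tested. Leaving out 1 library gave 0 to 5886 calls, and leaving out both 05 and 18 gave 0. It stayed within 1.5 times under RLE size factors (838), a mean of at least 1 CPM (991), no filter (1026) and removal of a gene length trend (731). The genes were partly others: under these settings, in that order, 800, 843, 760 and 589 of the 854 were called in the same direction. No gene was called under all 16 alternatives. The difference from the step from 1 to 11 mg/kg/d gave 0 calls, 0 to 844 without 1 library and 108 with the step from vehicle to 1 mg/kg/d in its place. The difference from the step from 100 to 300 mg/kg/d gave 1389 calls, 0 to 6610 without 1 library and 0 without 05 and 18. The mean mitochondrial share was 7.17% at 100 and 5.10% at 11 mg/kg/d, 2.07 percentage points higher. Without the 10 genes with the highest counts it was 0.686% and 0.517%, 0.169 points higher. Those genes held most of the mitochondrial counts, so the differences in points are on unlike scales. The 300 mg/kg/d and vehicle libraries were also fitted alone, with the called genes still those of the fit of all 17 libraries. There 84.5% of the lower and 55.0% of the higher called genes had the same sign at 300 mg/kg/d. Over all genes tested, 50.4% were lower and 49.6% higher.

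With the mitochondrial share as a covariate, and with replicate 19 alone, the sign turned for Hsd3b1 (-0.16 and -0.42), Prdx1 (-0.073 and -0.14), Uqcrh (-0.015 and -0.12), Cox7b (-0.0061 and -0.12) and Dusp27 (0.11 and 0.16), with the covariate for AABR07001902.1 (-7.66) and with replicate 19 alone for Olr1694 (-0.32). No paired analysis was possible because the groups share no replicate numbers, and the title code, which both doses share, entered as a term in the fit with 163 calls. Depth and the 3 libraries a group limit what could be called: genes under about 1 CPM rest on few counts, 2 of the 3 libraries at 100 mg/kg/d stood apart, and no RNA quality value was used here.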
